A study of Macaca mulatta with 136 samples.

Results

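The genes described here are the cadherin and protocadherin genes of the rhesus macaque retina and of the RPE/choroid, the pigment epithelium kept with its underlying choroidal vessels. They were chosen by name alone, as the entries whose assigned symbol is CDH followed by a number or begins with PCDH. The rule found 45 of 19422 gene identifiers, 23 CDH genes and 22 PCDH genes. RNA came from 2 mm punches of postmortem eyes of 2 adult rhesus monkeys, labelled RM03 and RM04, aged 13 and 18 years, and the sources used here do not say which age belongs to which animal. The right and the left eye of each monkey were sampled at the fovea (the macular or foveal punch), the perimacula, the nasal location and the temporal periphery, and neural retina was separated from RPE/choroid. The 32 libraries therefore hold 4 eyes per tissue and location, with 2 tissues and 4 locations. No strain, genotype or treatment is given in the labels. Values in single libraries are given in the order RM03 right eye, RM03 left eye, RM04 right eye and RM04 left eye, which are replicates 1, 2, 3 and 4.

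Cadherins are transmembrane adhesion molecules whose extracellular domains bind calcium and hold neighbouring cells together. Classical cadherins of type I and type II bind catenins inside the cell, which tie them to actin, and neurons and epithelia carry different combinations of them. The δ1 and δ2 protocadherins and the clustered protocadherins share the extracellular repeats but not the catenin-binding tail, and they serve recognition between neurites in the nervous system. In the eye, N-cadherin (CDH2) is the classical cadherin of neural retina, E-cadherin (CDH1) and P-cadherin (CDH3) are found in pigment epithelium, VE-cadherin (CDH5) joins endothelial cells, and CDH23 and PCDH15 form the tip links of the inner ear and are altered in forms of Usher syndrome, which combines deafness with retinal degeneration.

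Each library held between 42448902 and 78574054 estimated counts, of which the 45 genes took 0.0974 to 0.144% in retina and 0.126 to 0.209% in RPE/choroid. Levels are CPM, counts scaled to the library total, after TMM normalization over the 32 libraries. They are not divided by gene length, so a level is compared between samples of a gene and not between genes. The periphery libraries were sequenced on 1 flow cell and the other 3 locations on 2 other flow cells, so that in both tissues a difference from the periphery cannot be told apart from the flow cell. The tissues matched their labels. Summed over the 9 rod markers, the retina libraries held 4010 to 28000 CPM and the RPE/choroid libraries 50.1 to 924 CPM, and over the 7 pigment epithelium markers measured the RPE/choroid libraries held 2670 to 21400 CPM and the retina libraries 283 to 2600 CPM. In RPE/choroid, 3 libraries stood apart in rod markers (fovea replicate 3 and periphery replicates 1 and 4, over 500 CPM) and 4 in Schwann cell markers (perimacula replicates 1 and 4 and periphery replicates 1 and 2, over 2000 CPM), and results that rest on them are also given without them. The Schwann cell set holds both periphery libraries of RM03, so fits without it keep RM04 alone at the RPE/choroid periphery. A change in such a fit cannot be told apart from the loss of libraries and of that monkey. In bulk tissue, fewer cells of a type and less RNA per cell cannot be told apart.

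Of the 45 genes, 44 passed the filter on low counts in retina and 43 in RPE/choroid. CDH15, M-cadherin of muscle, was in neither fit, with 0 to 6 counts in the retina libraries and 0 to 60 in the RPE/choroid libraries, where the 60 counts were in the periphery library of replicate 3. CDH16, a kidney cadherin, was left out of the RPE/choroid fit, where no library held more than 7 counts and the 4 periphery libraries held 0. The names of the clustered protocadherins are uncertain. Their genes are related copies that can share reads, and the files give PCDHAC2 as the human symbol of the entry named PCDHA5 and PCDHB8 as that of the entry named PCDHB14. The entry named PCDH11X carries the human symbol PCDH11Y.

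The comparison of retina with RPE/choroid asked which of these adhesion genes belong to which layer of the same punch. Of the 44 genes tested in the fit of both tissues, 19 were higher in retina at all 4 locations, beside 26.8% of all genes, and 13 were higher in RPE/choroid at all 4 locations, beside 29.1% of all genes (edgeR's quasi-likelihood test, Benjamini-Hochberg adjusted p under 0.05 at each location). The median size of the log2 difference, averaged over locations, was 3.07 among these genes and 0.96 among all genes tested. Of 13 type II genes, 7 were higher in retina and 4 were higher in RPE/choroid. Without the 3 RPE/choroid libraries high in rod markers the counts were 18 and 12, and without the 4 high in Schwann cell markers they were also 18 and 12. The shares of all genes in these smaller fits are not given here.

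The 13 genes higher in RPE/choroid included E-cadherin, P-cadherin and VE-cadherin. CDH1 ranged from 2.4 to 5.64 CPM over the 16 retina libraries, with a median of 3.72, and from 100 to 169 CPM over the 16 RPE/choroid libraries, with a median of 124. CDH3, whose loss causes a juvenile macular dystrophy, ranged from 3.88 to 27.4 CPM in retina with a median of 5.76 and from 95.7 to 243 CPM in RPE/choroid with a median of 192. CDH5 ranged from 3.83 to 9.06 CPM in retina with a median of 5.48 and from 153 to 340 CPM in RPE/choroid with a median of 255. For all 3 genes every RPE/choroid library lay above every retina library. The mean log2 differences, retina minus RPE/choroid, were -5.06 for CDH1, -4.45 for CDH3 and -5.45 for CDH5, with largest adjusted p over the 4 locations of 7.04e-21, 7.59e-12 and 6.46e-18.

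The other genes named on this side were PCDH12, a protocadherin of endothelial cells, and CDH19, a cadherin of the Schwann cell and melanocyte lineages. PCDH12 ranged from 0.393 to 1.52 CPM in retina with a median of 0.865 and from 26.7 to 91.5 CPM in RPE/choroid with a median of 51, a mean log2 difference of -5.91 and a largest adjusted p of 8.65e-14. CDH19 ranged from 0.054 to 0.464 CPM in retina with a median of 0.279 and from 58.6 to 145 CPM in RPE/choroid with a median of 97.9. Its tissues did not overlap, and its mean log2 difference of -8.63 (largest adjusted p 4.83e-18) was the largest in size among the 32 genes called. CDH19 was between 89.2 and 145 CPM in the 4 RPE/choroid libraries high in Schwann cell markers and between 58.6 and 113 CPM in the other 12.

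On the retina side, PCDH15 ranged from 44.4 to 127 CPM in retina with a median of 93.8 and from 0.0652 to 4.42 CPM in RPE/choroid with a median of 0.747. CDH12, a type II cadherin of the brain, ranged from 38.2 to 119 CPM in retina with a median of 66.8 and from 0.322 to 4.63 CPM in RPE/choroid with a median of 1.66. CDH20, also a type II cadherin, ranged from 31.1 to 50.5 CPM in retina with a median of 36.3 and from 0.334 to 4.62 CPM in RPE/choroid with a median of 1.06. None of the 3 genes overlapped between the tissues. Their mean log2 differences were 6.28, 5.10 and 4.99, with largest adjusted p of 4.22e-07, 2.14e-08 and 1.38e-10.

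CDH8, a type II cadherin known from neural circuits, ranged from 8.67 to 15.8 CPM in retina with a median of 13.7 and from 0 to 1.8 CPM in RPE/choroid with a median of 0.549. PCDH19, a δ2 protocadherin mutated in a form of epilepsy, ranged from 6.93 to 41.7 CPM in retina with a median of 18.8 and from 0.141 to 3.13 CPM in RPE/choroid with a median of 0.912. Both differed without overlap, by 4.82 (largest adjusted p 2.07e-07) and 4.45 (largest adjusted p 6.39e-06) on the log2 scale. CDH2 ranged from 121 to 208 CPM in retina with a median of 166 and from 5.62 to 14.9 CPM in RPE/choroid with a median of 10.2, a mean log2 difference of 4.05 with a largest adjusted p of 2.13e-14.

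In RPE/choroid, PCDH15 and CDH12 were highest where rod marker RNA was highest. PCDH15 was between 3.25 and 4.42 CPM in the 3 RPE/choroid libraries high in rod markers, whose 9 rod markers summed to 539 to 924 CPM, and between 0.0652 and 1.6 CPM in the other 13, whose rod markers summed to 50.1 to 213 CPM. CDH12 was between 3.97 and 4.63 CPM in those 3 libraries and between 0.322 and 3.45 CPM in the other 13. CDH20, CDH8 and PCDH19 overlapped between the same sets of libraries. CDH20 was 1.19 to 4.62 CPM in those high in rod markers and 0.334 to 2.95 CPM in the others. CDH8 was 0 to 1.8 and 0.134 to 0.918 CPM, and PCDH19 was 0.741 to 2.09 and 0.141 to 3.13 CPM. The part of retinal RNA in these values was not tested.

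CDH23 did not divide by tissue over all locations and both monkeys. It ranged from 15.5 to 196 CPM in retina with a median of 90.9 and from 5.35 to 149 CPM in RPE/choroid with a median of 17.1, and the ranges overlapped. Outside the periphery, RM04 held 42.4 to 196 CPM in retina and 5.35 to 17.5 CPM in RPE/choroid, and RM03 15.5 to 105 and 65.1 to 149 CPM. At the periphery the tissues did not overlap, at 86.9 to 158 CPM in retina and 14.9 to 18.7 CPM in RPE/choroid. The log2 difference, retina minus RPE/choroid, was -0.49 ± 0.82 (SE, n = 4 eyes per tissue, edgeR adjusted p = 0.594) at the fovea and 2.96 ± 0.82 (SE, n = 4 eyes per tissue, edgeR adjusted p = 0.00202) at the periphery.

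**Figure D1:**
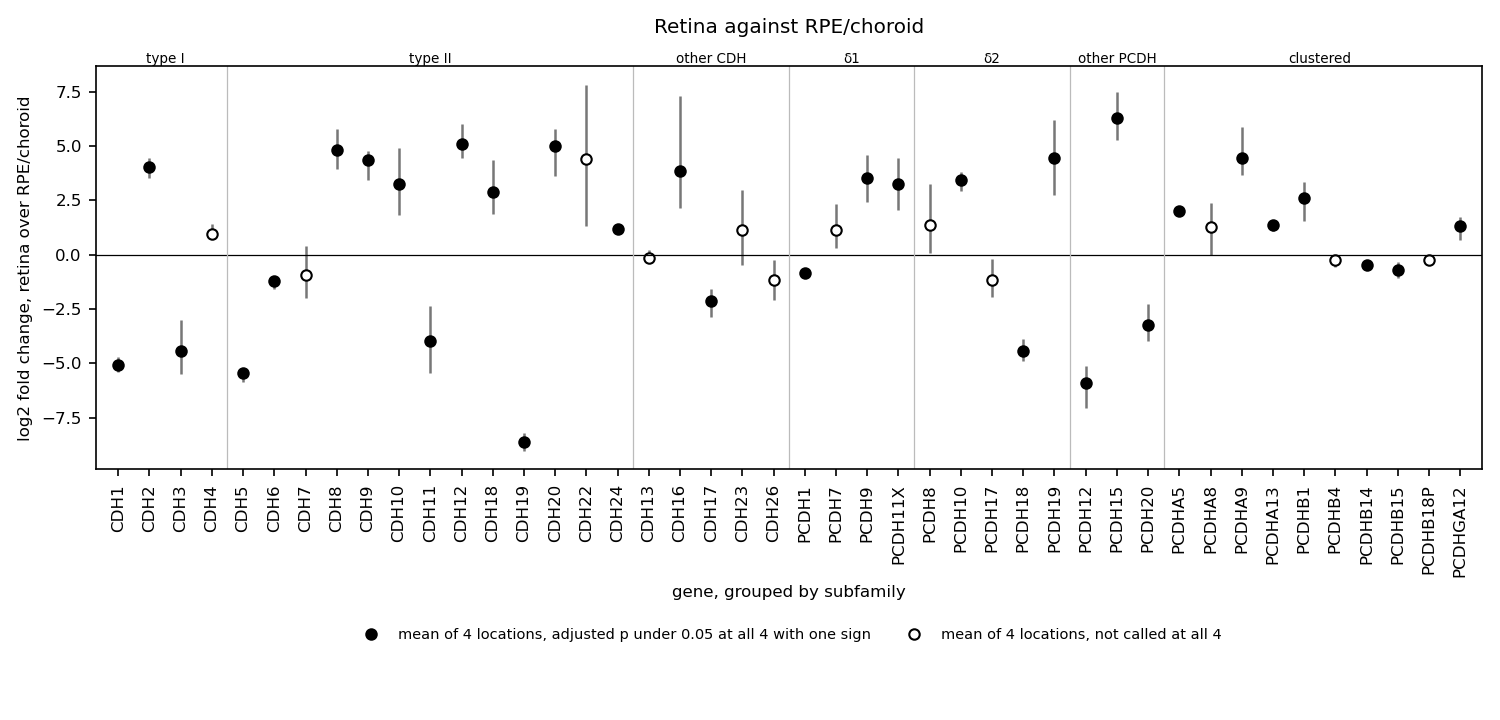
Difference between the tissues for the 44 genes tested, grouped by subfamily along the horizontal axis. The vertical axis is the log2 fold change of retina over RPE/choroid, points are means of the 4 locations, bars run from the lowest to the highest location, and filled points are the 32 genes called at all 4 locations, from -8.63 for CDH19 to 6.28 for PCDH15.

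Within retina, the fovea was compared with each of the other 3 locations in 1 fit of the 16 retina libraries with the monkey as a covariate. The 3 comparisons share the fovea libraries, so that their values for a gene are given side by side and are not independent. Against the perimacula, 15 of 44 genes were higher at the fovea, beside 20.7% of all genes, and 8 were lower, beside 20%. Against the nasal location, 17 were higher, beside 25.1% of all genes, and 14 were lower, beside 27.2%. Against the periphery, 21 were higher, beside 32% of all genes, and 11 were lower, beside 37.6%. The median log2 fold changes were -0.01, -0.12 and 0.36 for these genes and -0.01, -0.04 and -0.06 for all genes tested. The count of 23 genes called against the perimacula was 12 without replicate 1 and 15 without replicate 3. Those fits hold fewer libraries for every gene, and their share of all genes called is not given here.

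By subfamily, the calls between fovea and periphery can be read against the 32% of all genes that were higher and the 37.6% that were lower. No difference between subfamilies was tested. Of 13 type II classical cadherins, 9 were higher at the fovea, 1 was lower and 3 were not called, with a median log2 fold change of 0.88. Of 4 type I classical cadherins tested, 3 were lower and none was called higher, with a median of -0.65. Among the δ1 protocadherins 3 of 4 were higher, among the δ2 protocadherins 2 of 5 were higher and 1 was lower, and among the clustered protocadherins 6 of 10 were higher and 2 were lower. The group of PCDH12, PCDH15 and PCDH20 had 2 genes lower and none called higher.

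The marker genes of retinal cells changed over the same punches. The 8 ganglion cell markers summed to a median of 8690 CPM at the fovea, 3110 at the perimacula, 1690 in the nasal punch and 613 at the periphery. The 9 rod markers summed to medians of 4320, 14800, 16800 and 25100 CPM, and the pigment epithelium markers in retina to 303, 702, 1030 and 2480 CPM. No defining marker of these lists was at 0 in a whole group. The part of these shifts in the gene values below was not tested.

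Among the genes higher at the fovea, CDH10, a type II cadherin of neurons, had the highest log2 fold change of the 44 genes in each of the 3 comparisons. It was 13.2, 11.8, 20.3 and 19.8 CPM at the fovea, 4.31, 3.99, 4.19 and 10.7 at the perimacula, 3.31, 2.85, 3.28 and 3.52 in the nasal punch and 1.37, 1.24, 1.92 and 1.03 at the periphery. Every fovea library lay above every library of the other locations, and the perimacula library of replicate 4 lay apart from the other 3. The log2 fold changes were 1.55 ± 0.25 (SE, n = 4, edgeR adjusted p = 0.000205) against the perimacula, 2.33 ± 0.25 (SE, n = 4, edgeR adjusted p = 3.48e-06) against the nasal location and 3.56 ± 0.27 (SE, n = 4, edgeR adjusted p = 2.45e-08) against the periphery. The perimacula library of replicate 4 also held more ganglion cell marker RNA, 4820 CPM beside 2210 to 3250 CPM in the other 3, and less rod marker RNA, 10600 beside 14500 to 16600 CPM. Without that library, 21 genes were called against the perimacula in place of 23, and the share of all genes in that smaller fit is not given here.

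CDH7, another type II cadherin, was 22.2, 17.9, 21 and 22.8 CPM at the fovea and 8.26, 7.95, 12.6 and 16.8 CPM at the perimacula. It was 7.08, 5.64, 7.4 and 11.6 CPM in the nasal punch and 3.71, 3.74, 11.2 and 7.95 CPM at the periphery. The fovea libraries stood above all others, and RM04 was higher than RM03 at the periphery. The log2 fold changes were 1.01 ± 0.23 against the perimacula (SE, n = 4, edgeR adjusted p = 0.00248, and 0.0593 with no covariate for the monkey), 1.5 ± 0.23 against the nasal location (adjusted p = 6.74e-05) and 1.84 ± 0.23 against the periphery (adjusted p = 4.61e-06).

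PCDH19 was 36.8, 31.5, 41.7 and 39.9 CPM at the fovea, 18.7, 18.1, 18.9 and 31.7 at the perimacula, 16.9, 15.2, 19.1 and 21.1 in the nasal punch and 6.93, 7.33, 14.9 and 12.2 at the periphery. The fovea overlapped the perimacula only through the library of replicate 4 and overlapped neither of the other locations. The log2 fold change against the periphery was 1.96 ± 0.16 (SE, n = 4, edgeR adjusted p = 6.06e-08), beside 0.84 ± 0.16 against the perimacula and 1.10 ± 0.16 against the nasal location. PCDHA8, an α protocadherin whose label is uncertain, was 6.79, 4.65, 6.41 and 6.71 CPM at the fovea, 3.47, 2.44, 2.16 and 5.09 at the perimacula, 1.46, 1.63, 2.7 and 3.38 in the nasal punch and 1.11, 0.758, 1.93 and 1.16 at the periphery. Its fovea libraries overlapped those of the perimacula alone. Its log2 fold changes were 0.96 ± 0.27, 1.52 ± 0.27 and 2.40 ± 0.28 (SE, n = 4), with edgeR adjusted p of 0.00988, 0.000258 and 2.04e-06.

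Other genes called higher at the fovea than at the periphery included CDH6 at 1.54 ± 0.14, PCDH1 at 1.73 ± 0.16 and PCDH9 at 1.79 ± 0.12 on the log2 scale (SE, n = 4). PCDH9, a δ1 protocadherin of the nervous system, was 84.6, 72, 95.4 and 96.2 CPM at the fovea and 20.4, 20.4, 35.8 and 29.7 CPM at the periphery, with no overlap. CDH18, a type II cadherin, was 22, 18.1, 17 and 18.5 CPM at the fovea and 10.3, 8.51, 11.3 and 8.54 CPM at the periphery, again with no overlap and a log2 fold change of 1.01 ± 0.13. The named type II genes CDH12 and CDH20 were also called higher at the fovea, by 1.02 ± 0.13 and 0.28 ± 0.11 on the log2 scale, and CDH20 overlapped between the 2 locations and was not called without replicate 1 or 4.

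The tip-link genes were lower at the fovea. CDH23 was 17.2, 15.5, 42.4 and 45.1 CPM at the fovea and 52.9, 52.1, 112 and 76 CPM at the perimacula. It was 94.8, 105, 177 and 196 CPM in the nasal punch and 86.9, 97.2, 158 and 158 CPM at the periphery. The fovea did not overlap with any other location, and RM04 was higher than RM03 at every location. The log2 fold changes of the fovea were -1.33 ± 0.13 against the perimacula (SE, n = 4, edgeR adjusted p = 4.84e-06), -2.29 ± 0.14 against the nasal location (adjusted p = 2.46e-08) and -2.11 ± 0.13 against the periphery (adjusted p = 5.04e-09).

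PCDH15 was 47.7, 44.4, 51.2 and 55.7 CPM at the fovea, 107, 91.7, 110 and 94.8 at the perimacula, 114, 103, 116 and 127 in the nasal punch and 87.4, 97.8, 76 and 92.8 at the periphery. The fovea libraries lay below all others, and the highest values were at the nasal location. The log2 fold changes were -0.98 ± 0.09, -1.17 ± 0.09 and -0.79 ± 0.09 (SE, n = 4), with edgeR adjusted p of 1.99e-06, 1.7e-07 and 1.19e-06.

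CDH11, a type II cadherin of mesenchymal cells, was 12.6, 10.2, 9.93 and 10.9 CPM at the fovea and 22.9, 24.3, 20.8 and 17.6 CPM at the perimacula. It was 35.3, 38.4, 28.5 and 32.6 CPM in the nasal punch and 36.3, 41.2, 49.5 and 43.1 CPM at the periphery. The fovea stood below every other location without overlap. The log2 fold changes were -0.93 ± 0.12, -1.59 ± 0.13 and -1.92 ± 0.13 (SE, n = 4), with edgeR adjusted p of 5.25e-05, 2.61e-07 and 6.47e-09.

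CDH3 in retina was 4.68, 4.87, 5.01 and 4.24 CPM at the fovea, 3.88, 4.8, 5.84 and 5.38 at the perimacula, 11, 5.68, 7.35 and 7.81 in the nasal punch and 18.9, 27.4, 12 and 18.3 at the periphery. The fovea and the perimacula overlapped, while the nasal and periphery libraries lay above the fovea. The log2 fold change was -0.05 ± 0.23 against the perimacula (SE, n = 4, edgeR adjusted p = 0.873), -0.72 ± 0.22 against the nasal location (adjusted p = 0.0144, lost without replicate 1 or 4) and -1.96 ± 0.23 against the periphery (adjusted p = 1.99e-06). CDH1 was 2.6, 2.4, 2.96 and 3.13 CPM at the fovea and 4.53, 5.64, 4.3 and 4.99 CPM at the periphery, without overlap, and its log2 fold change was -0.77 ± 0.12 (SE, n = 4, edgeR adjusted p = 4.13e-05). Against the perimacula CDH1 fell by 0.33 on the log2 scale with an adjusted p of 0.0416, and the call was lost on leaving out any of the 4 eyes.

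CDH2 was 137, 121, 128 and 134 CPM at the fovea and 184, 208, 179 and 203 CPM at the periphery, with no overlap. Its log2 fold changes were small, -0.27 ± 0.07 against the perimacula, -0.44 ± 0.07 against the nasal location and -0.53 ± 0.07 against the periphery (SE, n = 4, edgeR adjusted p = 0.00936, 0.000182 and 1.61e-05), and the first was lost without replicate 1 or 3. CDH5 in retina was 6.23, 5.07, 4.25 and 4.82 CPM at the fovea and 7.33, 9.06, 5.89 and 7.55 CPM at the nasal location, which overlapped, with a log2 fold change of -0.52 ± 0.13 (SE, n = 4, edgeR adjusted p = 0.00323) that was not called with no covariate for the monkey. Against the perimacula and the periphery CDH5 gave -0.19 ± 0.13 and 0.19 ± 0.13, neither called. PCDH12 was 0.513, 0.574, 0.461 and 0.514 CPM at the fovea and 0.91, 1.17, 1.29 and 1.38 CPM at the nasal location, without overlap, with a log2 fold change of -1.18 ± 0.35 (SE, n = 4, edgeR adjusted p = 0.0118) that lost its call without replicate 3 or 4.

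The clustered protocadherins, whose varied use gives single neurons different surface identities, included genes called each way in retina. PCDHA13 was 19.5 ± 4.48 CPM at the fovea and 8.81 ± 2.16 CPM at the periphery, PCDHB15 25.9 ± 3.08 and 9.88 ± 1.89 CPM, and PCDHB14 21.6 ± 1.28 and 12.3 ± 1.11 CPM (SD, n = 4), with log2 fold changes of 1.19 ± 0.18, 1.44 ± 0.16 and 0.86 ± 0.11 (SE), all called. The entry named PCDHA5 was 265 ± 25.7 CPM at the fovea and 231 ± 18.3 CPM at the periphery (SD, n = 4), a called difference of 0.24 ± 0.08 (SE) that was lost without replicate 1, 3 or 4. PCDHGA12 was the clustered gene called lower at the fovea in all 3 comparisons, by -0.75 ± 0.14, -0.74 ± 0.14 and -0.46 ± 0.14, the last lost without replicate 2, and PCDHB1 was lower than at the periphery by -1.11 ± 0.20 (SE, n = 4).

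Of the remaining genes in retina, the type II genes CDH9 and CDH24 and the atypical CDH26 were called higher at the fovea than at the periphery, by 1.35 ± 0.16, 0.56 ± 0.14 and 1.09 ± 0.17 on the log2 scale (SE, n = 4), and CDH24 was not called with no covariate for the monkey. PCDH10, a δ2 protocadherin, was called higher at the fovea in each comparison, by 0.63 ± 0.14, 0.81 ± 0.14 and 0.85 ± 0.14, and PCDH17, of the same group, was lower than at the periphery by -0.76 ± 0.26, a call lost without replicate 2. PCDH7 was called higher in each comparison at a mean under 1 CPM, and CDH16 lower in each at 2 to 35 counts per library. Against the perimacula PCDH7 was not called without replicate 1 or 4 and CDH16 not without replicate 1, 2 or 4, and against the nasal location PCDH7 was not called without replicate 4. CDH13, a cadherin anchored to the membrane by lipid, was called lower against the nasal location alone, by -0.92 ± 0.17. CDH4, R-cadherin of retina, and CDH17, CDH19, PCDH18 and PCDHA9 were called in none of the 3 comparisons in the reported fit. CDH4 against the periphery (edgeR adjusted p = 0.0507) was called with RLE normalization, no filter, at least 10 counts in every library and DESeq2. PCDHA9 was called against the perimacula with at least 10 counts in every library, and against the perimacula and the periphery with DESeq2.

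**Figure D2:**
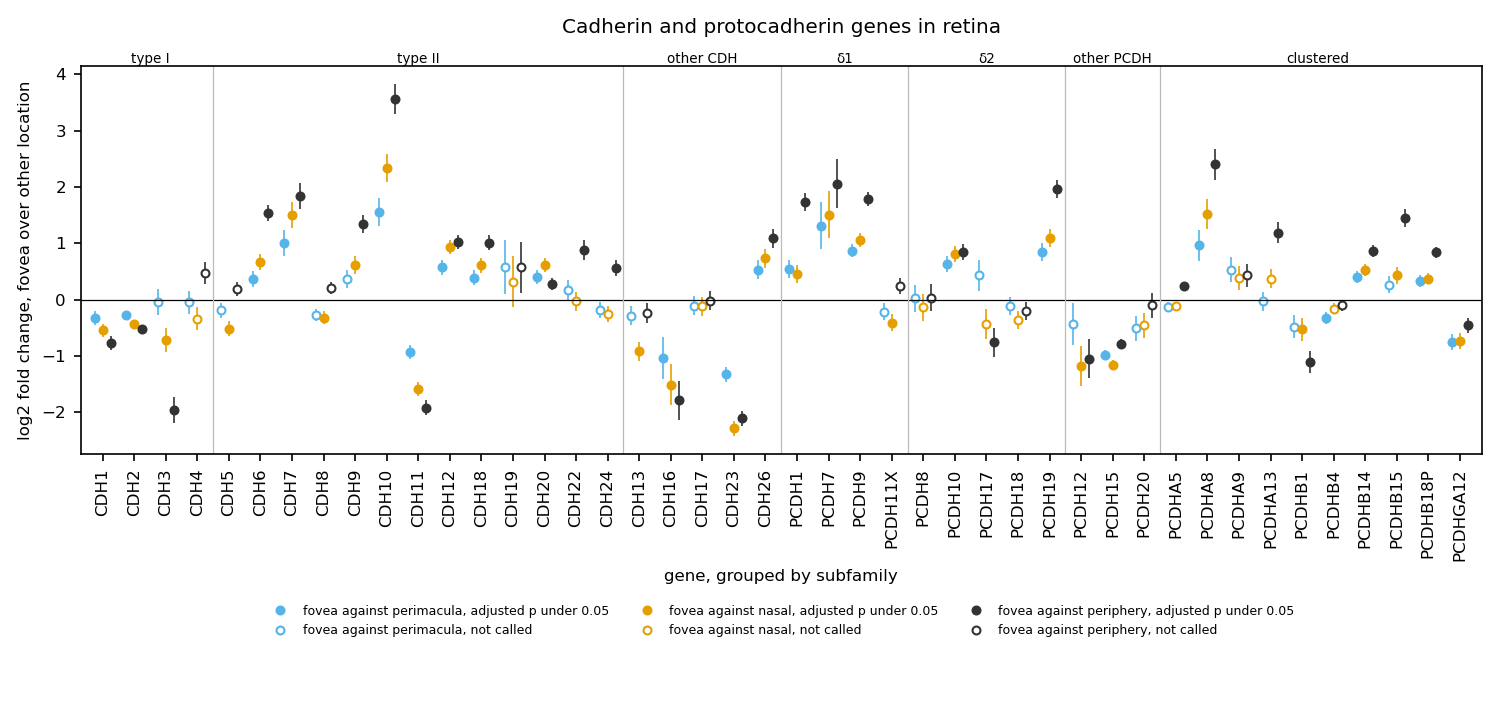
Log2 fold change of the fovea over the perimacula, the nasal punch and the periphery in retina for the 44 genes tested, with bars of 1 SE. Filled points passed an adjusted p under 0.05, and the points reach from -2.29 for CDH23 against the nasal location to 3.56 for CDH10 against the periphery.

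**Figure D3:**
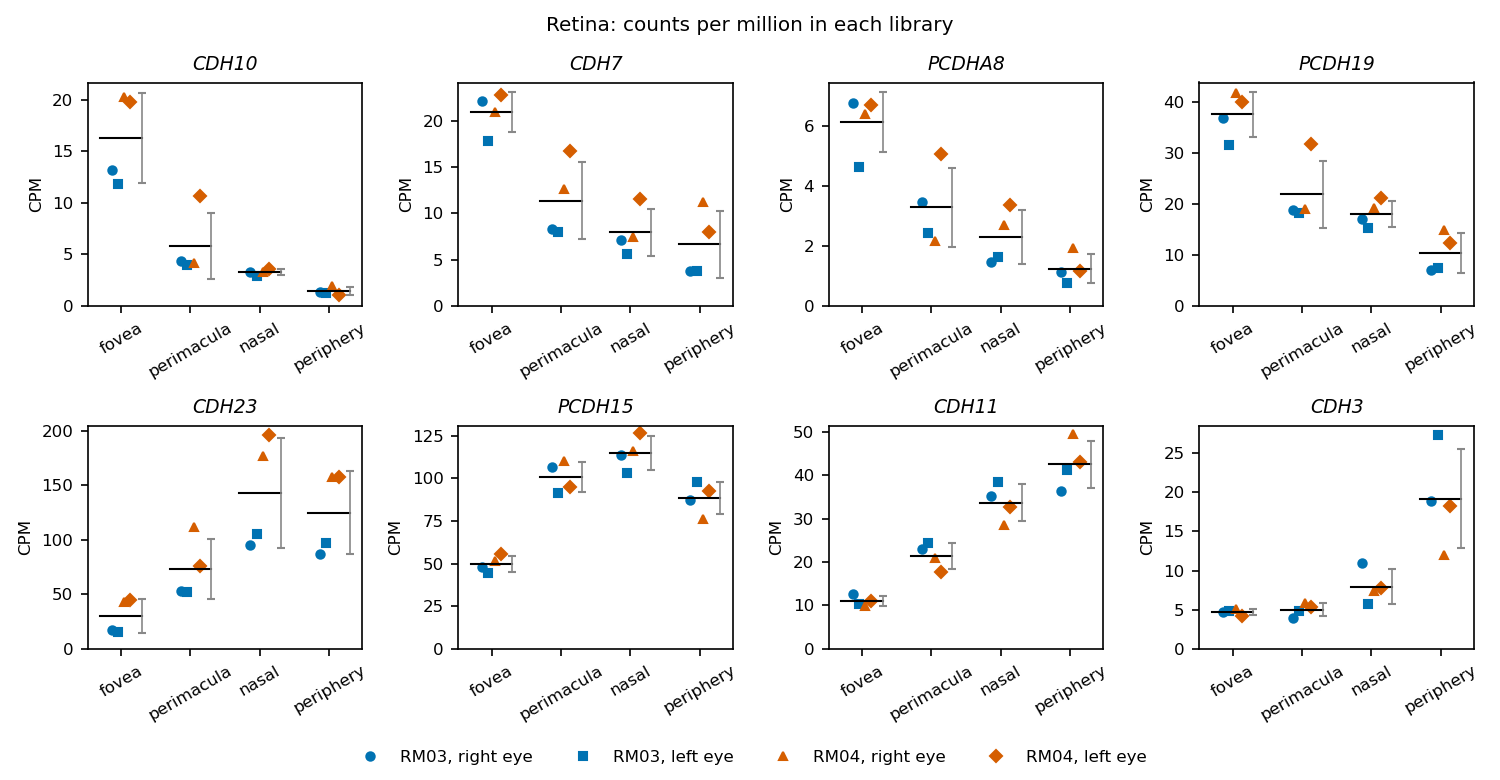
CPM of 8 named genes in each of the 16 retina libraries by location, with the monkey shown by colour, the mean by a black line and the SD (n = 4) by a grey bar. CDH10, CDH7, PCDHA8 and PCDH19 were highest at the fovea, CDH23, PCDH15 and CDH11 were lowest there, and the perimacula library of the left eye of RM04 lay nearest to the fovea for CDH10.

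In RPE/choroid, no gene of the 43 tested was called between the fovea and the perimacula or the nasal location by edgeR's quasi-likelihood test, beside 0.139% and 0.361% of all genes. At an unadjusted p under 0.05 there were 17 and 5 of the 43 genes, beside 2005 and 2449 of all 15789 genes. DESeq2 called 4 genes against the perimacula (CDH5, CDH18, PCDH12 and PCDH17), beside 2.57% of all genes, and 1 against the nasal location (CDH18), beside 3.1%. A fit of the compared locations alone called 2 (CDH12 and PCDH17), beside 2.35% of all genes, and 1 (CDH3), beside 2.29%. The median standard error of the log2 fold changes was 0.35 among these genes in RPE/choroid and 0.16 in retina. The median log2 fold changes were 0.12 and -0.03, beside -0.01 and 0.00 for all genes tested.

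Between the fovea and the periphery of RPE/choroid, 16 of 43 genes were higher at the fovea, beside 23% of all genes, and 8 were lower, beside 24.8%. The median log2 fold change was 0.42 for these genes and -0.06 for all genes tested. The protocadherins supplied 12 of the genes higher and 3 of those lower, and the CDH genes 4 and 5. Without the 4 libraries high in Schwann cell markers, which leaves RM04 alone at the periphery, the counts were 17 and 5. Without the 3 high in rod markers they were 17 and 6. The shares of all genes in these smaller fits are not given here.

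The genes higher at the fovea included the endothelial CDH5 and PCDH12. CDH5 was 244, 278, 340 and 337 CPM at the fovea and 153, 168, 221 and 195 CPM at the periphery. The groups did not overlap, and the log2 fold change was 0.70 ± 0.07 (SE, n = 4, edgeR adjusted p = 2.76e-06). PCDH12 was 46.9, 56.5, 85.5 and 91.5 CPM at the fovea and 26.7, 27.7, 52.6 and 51.5 CPM at the periphery, which overlapped across monkeys and not within either monkey, with a log2 fold change of 0.83 ± 0.14 (SE, n = 4, edgeR adjusted p = 0.000205). The 8 endothelial markers summed to 1570 to 2360 CPM at the fovea and 1040 to 1410 CPM at the periphery of RPE/choroid, and their part in these differences was not tested.

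PCDH1, a δ1 protocadherin of epithelia and neurons, was 121, 160, 123 and 131 CPM at the fovea and 44.4, 60.1, 44 and 38.4 CPM at the periphery. The fovea libraries lay above the periphery libraries by a wide margin, and the log2 fold change was 1.52 ± 0.12 (SE, n = 4, edgeR adjusted p = 5.28e-07). CDH6, K-cadherin, was 34.4, 48, 46.9 and 42.1 CPM at the fovea and 9.17, 18.8, 17.8 and 8.57 CPM at the periphery, with no overlap and a log2 fold change of 1.65 ± 0.25 (SE, n = 4, edgeR adjusted p = 0.00011). The 7 smooth muscle markers summed to 6060 to 10300 CPM at the fovea and 623 to 2220 CPM at the periphery, and the 6 fibroblast markers to 2880 to 3760 and 4990 to 10000 CPM. Whether these shifts entered the differences of PCDH1 and CDH6 was not tested.

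CDH11 in RPE/choroid was 615, 658, 278 and 416 CPM at the fovea and 245, 228, 202 and 214 CPM at the periphery. The 2 groups did not overlap, and the libraries of RM03 were higher than those of RM04 at the fovea. The log2 fold change was 1.05 ± 0.18 (SE, n = 4, edgeR adjusted p = 0.000269). PCDH20, a non-clustered protocadherin, was 24.9, 18.8, 6.5 and 8.22 CPM at the fovea and 3.97, 8.8, 3.64 and 3.54 CPM at the periphery, which overlapped. Its log2 fold change of 1.35 ± 0.35 (SE, n = 4, edgeR adjusted p = 0.00612) was not called with no covariate for the monkey (adjusted p = 0.0976), and it was 0.78 (adjusted p = 0.0905) without the 4 libraries high in Schwann cell markers. CDH3 was 220, 243, 193 and 191 CPM at the fovea and 209, 198, 95.7 and 126 CPM at the periphery, with a log2 fold change of 0.48 ± 0.18 (SE, n = 4, edgeR adjusted p = 0.0417) that lost its call without replicate 2, 3 or 4 and without the 3 libraries high in rod markers (adjusted p = 0.0914).

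CDH22, PCDH8 and CDH20 had the lowest log2 fold changes at the fovea among the genes called. CDH22, a type II cadherin of brain and pituitary, was 0.0537, 0, 0.154 and 0 CPM at the fovea, from 0 to 7 counts, and 2.15, 9.51, 0.771 and 0.52 CPM at the periphery. The periphery libraries were all above the fovea libraries, and replicate 2 was the highest. The fitted log2 fold change of -5.35 ± 1.74 (SE, n = 4, edgeR adjusted p = 0.0211) was not called without replicate 2 or 4. CDH22 was between 1.37 and 9.51 CPM in the 4 RPE/choroid libraries high in Schwann cell markers, whose 8 markers summed to 2010 to 13000 CPM, and between 0 and 0.771 CPM in the other 12, whose markers summed to 220 to 1060 CPM. Without those 4 libraries, with RM04 alone left at the periphery, the log2 fold change was -3.07 with an edgeR adjusted p of 0.0862.

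PCDH8, a δ2 protocadherin, was 0.0358, 0, 4.96 and 1.26 CPM at the fovea and 3.84, 4.01, 13.6 and 9.54 CPM at the periphery. The groups overlapped, while in each eye the periphery was higher. The fitted log2 fold change of -4.20 ± 1.26 (SE, n = 4, edgeR adjusted p = 0.0136) was not called without replicate 1 or 2, and was -2.31 (adjusted p = 0.319) with no covariate for the monkey. CDH20 was 0.716, 0.334, 1.19 and 1.21 CPM at the fovea and 4.62, 2.95, 1.63 and 3.77 CPM at the periphery, without overlap, with a log2 fold change of -1.96 ± 0.51 (SE, n = 4, edgeR adjusted p = 0.00568). It was -1.62 (adjusted p = 0.0602) without the 3 libraries high in rod markers and -1.44 (adjusted p = 0.0929) without the 4 high in Schwann cell markers.

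The junction genes CDH1 and CDH2 were not called in RPE/choroid at any location. CDH1 was 120, 132, 102 and 111 CPM at the fovea and 123, 120, 143 and 120 CPM at the periphery, and its log2 fold change was -0.12 ± 0.11 (SE, n = 4, edgeR adjusted p = 0.407). CDH2 was 10.9, 12.2, 11.2 and 10.2 CPM at the fovea and 14.9, 5.62, 5.72 and 8.97 CPM at the periphery, with a log2 fold change of 0.35 ± 0.24 (SE, n = 4, edgeR adjusted p = 0.254). Its highest periphery library, replicate 1, was also the highest in rod markers at 924 CPM, and without the 3 libraries high in rod markers CDH2 was called at 0.94 with an adjusted p of 0.00142. Without replicate 1, and without the 4 libraries high in Schwann cell markers, it was called at 0.72 and 0.54.

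CDH23 in RPE/choroid followed the monkey more than the location. It was 93.2, 99.6, 5.35 and 15.3 CPM at the fovea, 102, 149, 14.6 and 9.39 at the perimacula, 65.1, 125, 9.95 and 17.5 in the nasal punch and 16.8, 14.9, 16.2 and 18.7 at the periphery. At the fovea, the perimacula and the nasal location both eyes of RM03 were far above both eyes of RM04, and at the periphery the 4 libraries were alike. The log2 fold change of fovea over periphery was 0.50 ± 0.63 (SE, n = 4, edgeR adjusted p = 0.542), with the monkeys moving in opposite directions.

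Among the other protocadherins of RPE/choroid, PCDH18 was 180 ± 20.8 CPM at the fovea and 107 ± 12 CPM at the periphery (SD, n = 4), a called log2 difference of 0.75 ± 0.11 (SE), and PCDH17 was 11.1 ± 3.97 and 6.18 ± 2.22 CPM, a called difference of 0.84 ± 0.19. Of the 10 clustered genes 6 were called higher at the fovea, from 0.42 ± 0.12 for PCDHB4 to 1.07 ± 0.16 for the pseudogene entry PCDHB18P (SE, n = 4). The calls of PCDHB4, PCDHB14 and PCDHGA12 were each lost on leaving out at least 2 of the eyes in turn. PCDHA9 was called lower, at 0.0551 ± 0.0365 and 0.206 ± 0.177 CPM, a call lost on leaving out any of the 4 eyes, and PCDH11X higher, at 0.896 ± 0.229 and 0.163 ± 0.171 CPM (SD, n = 4). CDH18 and CDH26 were lower at the fovea than at the periphery by -1.54 ± 0.37 and -0.75 ± 0.16 (SE, n = 4), while in retina both were higher. CDH7 was lower by -0.66 ± 0.25 (edgeR adjusted p = 0.0457), a call lost on leaving out any of the 4 eyes, with the eye as a block, with no covariate and without the 4 libraries high in Schwann cell markers. Its highest library, 55.9 CPM, was the periphery library of replicate 2, which was also the highest in Schwann cell markers.

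**Figure D4:**
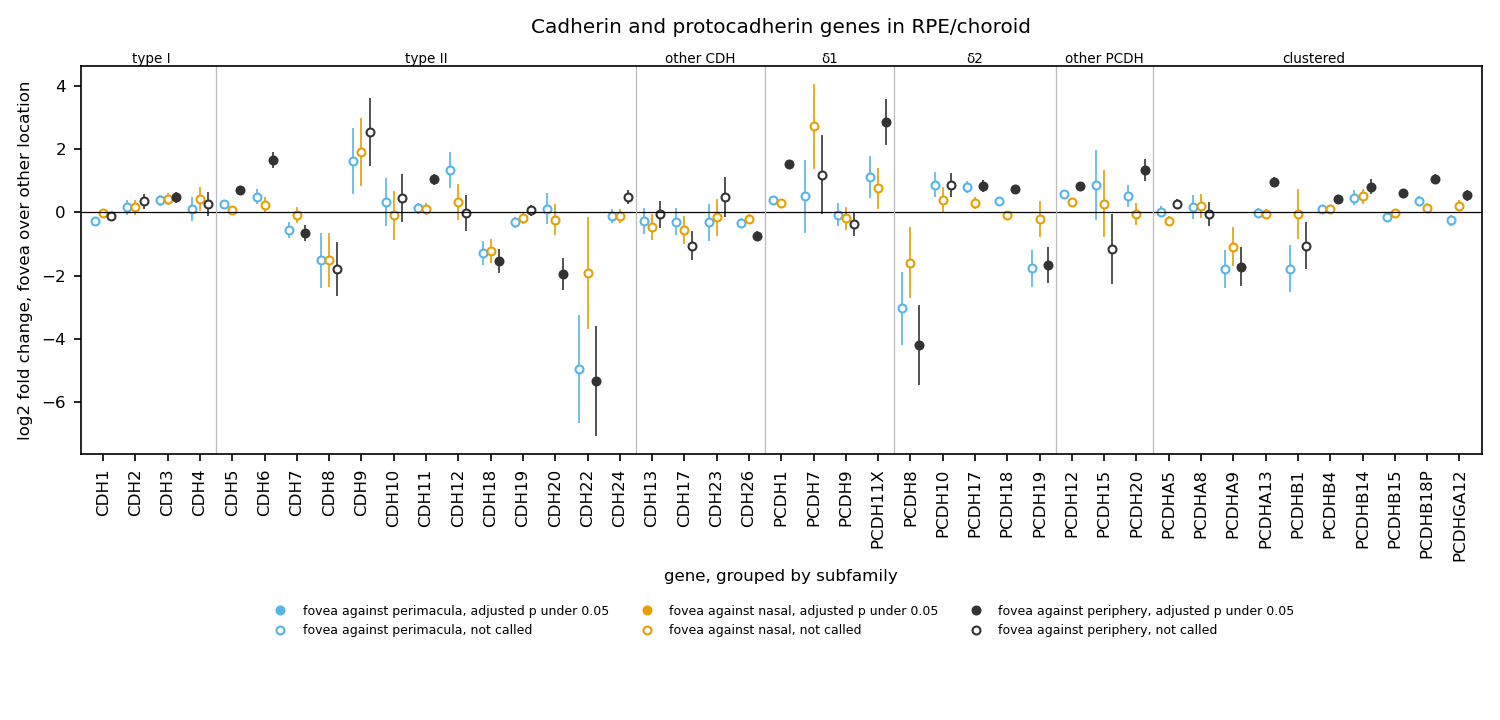
Log2 fold change of the fovea over the perimacula, the nasal punch and the periphery in RPE/choroid for the 43 genes tested, with bars of 1 SE. Filled points passed an adjusted p under 0.05, and all 24 of them belong to the comparison with the periphery, from -5.35 for CDH22 to 2.87 for PCDH11X.

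**Figure D5:**
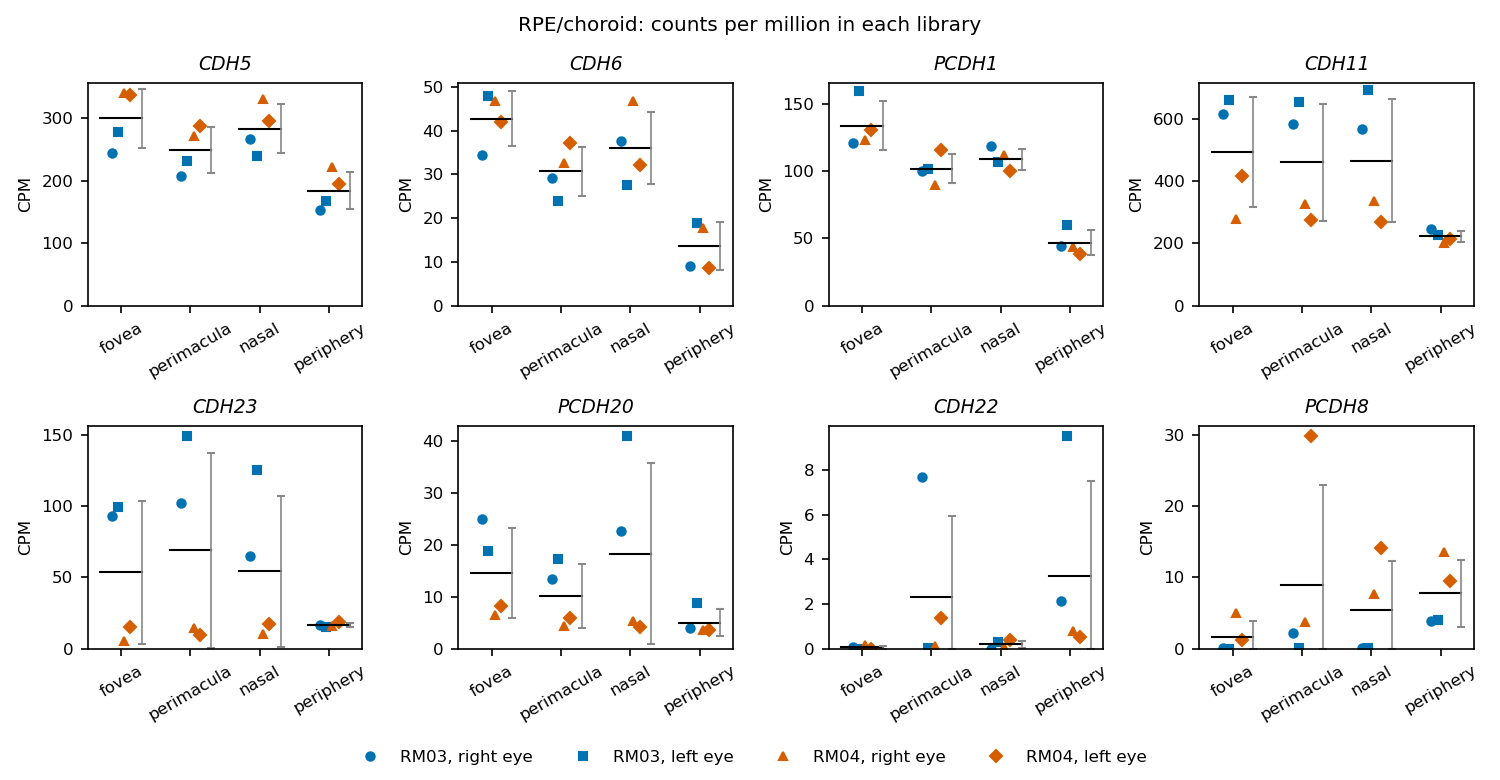
CPM of 8 named genes in each of the 16 RPE/choroid libraries by location, with the monkey shown by colour, the mean by a black line and the SD (n = 4) by a grey bar that stops at 0. CDH5, CDH6 and PCDH1 were lowest at the periphery in both monkeys, and CDH23 divided by monkey at the other 3 locations, from 65.1 to 149 CPM in RM03 and from 5.35 to 17.5 CPM in RM04.

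Whether a location difference itself differed between the tissues was tested as an interaction in the fit of all 32 libraries. For fovea against periphery, 12 of 44 genes had a more positive difference in retina, beside 19.1% of all genes, and 11 a more negative one, beside 24.5%. For fovea against the nasal location, 4 were more positive, beside 11% of all genes, and 5 more negative, beside 12.5%. The 9 genes called for the nasal location were 5 without replicate 4, in a smaller fit whose share of all genes is not given here. The median interactions were -0.02 and 0.12 on the log2 scale, beside -0.07 and -0.05 for all genes tested.

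CDH11 went opposite ways in the 2 tissues, lower at the fovea than at the periphery in retina and higher in RPE/choroid. Its interaction was -3.08 ± 0.30 for the periphery (SE, n = 4 eyes, edgeR adjusted p = 8.57e-09) and -1.71 ± 0.29 for the nasal location (adjusted p = 0.000113), with that sign in 4 of 4 eyes. CDH3 also had opposite signs against the periphery, and its interaction was -2.46 ± 0.32 (SE, n = 4 eyes, edgeR adjusted p = 7.09e-07). Against the nasal location the CDH3 interaction was -1.17 ± 0.32 (adjusted p = 0.00751), not called without replicate 4. In retina both CDH3 and the pigment epithelium marker sum had their highest median at the periphery, and the part of pigment epithelium RNA in the CDH3 values was not tested.

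CDH10 had a more positive difference in retina for the periphery, by 3.07 ± 0.79 (SE, n = 4 eyes, edgeR adjusted p = 0.0025), and for the nasal location, by 2.51 ± 0.78 (adjusted p = 0.0198), the latter not called without replicate 1 or 2. In RPE/choroid CDH10 was at 0.041 to 1.11 CPM. PCDH19 differed by 3.46 ± 0.65 for the periphery (SE, n = 4 eyes, edgeR adjusted p = 0.000117), as its RPE/choroid level was 0.143, 0.156, 1.48 and 0.722 CPM at the fovea and 0.741, 0.773, 3.13 and 2.09 CPM at the periphery. The interaction of CDH22 for the periphery was 6.51 ± 1.61 (SE, n = 4 eyes, edgeR adjusted p = 0.00178), and it rests on the 0 to 7 counts of the RPE/choroid fovea libraries. CDH18 and PCDH9 differed for the nasal location by 1.74 ± 0.41 and 1.21 ± 0.41 (SE, n = 4 eyes, edgeR adjusted p = 0.00276 and 0.0334), and the call of PCDH9 was lost without replicate 1, 3 or 4.

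The interaction of CDH23 for the periphery was -3.45 ± 1.13 (SE, n = 4 eyes, edgeR adjusted p = 0.015), not called without replicate 1 or 2 or without the 4 libraries high in Schwann cell markers (adjusted p = 0.0648). The monkeys differ in opposite directions in the 2 tissues for this gene, and the fit has a single term for the monkey. Without those 4 libraries the RPE/choroid periphery is that of RM04 alone. PCDH12 had an interaction of -1.54 ± 0.43 for the nasal location (SE, n = 4 eyes, edgeR adjusted p = 0.00948), not called without replicate 3 or 4. CDH1 had interactions of -0.70 ± 0.16 for the periphery and -0.56 ± 0.16 for the nasal location (adjusted p = 0.000958 and 0.0128), the first lost without replicate 2 and the second without replicate 1 or 2. That of CDH2 was -0.92 ± 0.27 for the periphery (adjusted p = 0.0074), lost without replicate 2, 3 or 4. For CDH5 and PCDH15 the interactions with the periphery, -0.57 ± 0.25 and -0.10 ± 0.92, were not called.

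Other members of the cadherin superfamily outside the name rule (FAT, Dachsous, CELSR, cadherin-related, calsyntenin and desmosomal genes and RET) were counted for context, with 16 of 25 listed genes tested in each tissue. Between fovea and periphery in retina, 9 were higher, beside 32% of all genes, 7 were lower, beside 37.6%, and 0 were not called, at a median log2 fold change of 0.60. In RPE/choroid 5 were higher, beside 23% of all genes, 3 were lower, beside 24.8%, and 8 were not called. CLSTN2, a synaptic calsyntenin, was 29.9 ± 1.27 CPM at the fovea and 3.25 ± 0.568 CPM at the periphery of retina (SD, n = 4), a log2 fold change of 3.25 ± 0.21 (SE, edgeR adjusted p = 5.36e-09). The desmosomal cadherin DSC3 was 0.784 ± 0.17 and 3.44 ± 1.12 CPM, and CDHR5, a cadherin of epithelial microvilli, 0.572 ± 0.143 and 3.58 ± 1.3 CPM (SD, n = 4), both called lower at the fovea. In RPE/choroid the Dachsous cadherin DCHS2 was 4.99 ± 1.82 CPM at the fovea and 21.3 ± 6.59 CPM at the periphery (SD, n = 4), a log2 fold change of -2.20 ± 0.30 (SE, edgeR adjusted p = 4.18e-05). CELSR3, an atypical cadherin of axon guidance, was higher in retina by a mean of 6.34 on the log2 scale (largest adjusted p 3.05e-07). CDHR1, a photoreceptor cadherin whose loss causes cone-rod dystrophy, was higher in retina at all 4 locations by a mean of 6.23 on the log2 scale (largest adjusted p 4.99e-05).

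Of the catenins and related armadillo genes, 13 were tested in retina and 12 in RPE/choroid. Between fovea and periphery, 3 were higher and 6 lower in retina, beside 32% and 37.6% of all genes. In RPE/choroid 5 were higher and 2 lower, beside 23% and 24.8% of all genes. CTNND2, δ-catenin of neurons, was 137 ± 5.31 CPM at the fovea and 36.2 ± 8.77 CPM at the periphery of retina (SD, n = 4), a log2 fold change of 1.98 ± 0.13 (SE, edgeR adjusted p = 8.71e-09), and 43.7 ± 13.3 and 18.3 ± 6.05 CPM in RPE/choroid. JUP, plakoglobin of epithelial junctions, was 8.24 ± 2.61 CPM at the fovea and 18.9 ± 4.1 CPM at the periphery of retina, and 119 ± 33.3 and 84.3 ± 23.5 CPM in RPE/choroid (SD, n = 4), with an interaction of -1.73 ± 0.22 (SE, edgeR adjusted p = 8.28e-07). CTNNA2, the neuronal α-catenin, was higher in retina than in RPE/choroid by a mean of 5.2 on the log2 scale (largest adjusted p 1.09e-07), and between the fovea and the periphery of RPE/choroid it was 4.59 ± 3.38 and 15.1 ± 8.49 CPM (SD, n = 4).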

How the data were processed

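Poly-A-selected RNA of 32 libraries was sequenced as paired reads of 100 bases, from samples with an RNA integrity number above 6.5. Per the submitters' processing notes and the study's methods, the authors assigned the reads to Mmul_8.0.1 transcripts with Salmon 0.13 and deposited, for each of 136 lanes, length-scaled estimated counts (expected counts) per gene in a column headed TPM. Their sums, from 7933343 to 39445657 per lane, differ as counts do. The 5 lanes of each fovea, perimacula and nasal library and the 2 lanes of each periphery library were summed and rounded, and 10 repeated identifiers were kept once. Length scaling and rounding leave small counts approximate, and counting error grows as counts fall.

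Tests used edgeR 4.0.16 under R 4.3.3 (TMM, filterByExpr at a minimum count of 10, quasi-likelihood), with a covariate for the monkey. P-values were adjusted after Benjamini and Hochberg over the 15486 genes tested in retina, 15789 in RPE/choroid and 16382 in both. Two-sided adjusted p under 0.05 was called. Standard errors are the log2 fold change divided by the root of its F statistic. Each tissue's 16 libraries were fitted together, and the tissues and interactions came from a fit of all 32. The libraries come from 4 eyes of 2 monkeys. The p-values rest on the spread left among the libraries of a fit once group and monkey are taken out. They treat the 2 eyes of a monkey as independent and do not measure the spread between animals. Same-numbered libraries come from the same eye, and their deviations from the group means correlated on average by 0.561 in retina and 0.387 in RPE/choroid. Libraries from fellow eyes of a monkey correlated about as much, by 0.555 and 0.403. Those from different monkeys correlated by -0.559 and -0.395. Each group mean holds both monkeys, so subtracting it forces this opposite sign once libraries of a monkey correlate. The negative values are therefore not a separate observation. The procedure was also run on simulated counts with a single fixed spread and no difference between monkeys or eyes. That run does not show how the tests behave at the spread of these data. Python 3.11.15 with pandas 2.3.3, numpy 2.4.6 and matplotlib 3.10.9 was used for tables and figures.

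The genes, lists and rules were chosen with earlier results of these data known. Genes named are, in each comparison of the fovea, up to 3 called genes with the largest change each way with a mean of at least 1 CPM in a compared group and the same direction in 4 of 4 eyes. Between tissues they are up to 5 each way with at least 5 CPM in the higher tissue, and among interactions up to 3 each way with at least 1 CPM. CDH1, CDH2, CDH3, CDH5, CDH23 and PCDH15 are always named. The examples from the partner lists were chosen after their values were seen, and they leave out some of the largest changes. The remaining genes, and named genes in other comparisons, are described by values chosen after they were seen. Alternatives were DESeq2 1.42.0, RLE normalization, no filter, a minimum of 10 counts in each library, a block for the eye, no covariate, each eye left out, the compared locations alone, the nasal libraries left out, and a prior count of 2. The sets without libraries high in rod or Schwann cell markers or without 1 perimacula library were chosen after seeing the data. No sequences were used here.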

Additional observations from a re-analysis of the deposited data

Results flagged for a closer look

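Among 184 groups of 4 libraries of the named genes, 7 held a library far from the other 3 by Dixon's test, and chance alone gives about 1 in 20 groups. In retina these were the perimacula libraries of replicate 4 for CDH10 (10.7 CPM, others 3.99 to 4.31) and PCDH19 (31.7 CPM, others 18.1 to 18.9), and the fovea library of replicate 2 for CDH6 (16.3 CPM, others 19.3 to 19.9). In RPE/choroid they were the periphery libraries of replicate 2 for PCDH9 (9.35 CPM, others 2.76 to 3.49) and PCDH20 (8.8 CPM, others 3.54 to 3.97), that of replicate 3 for CDH1 (143 CPM, others 120 to 123), and the perimacula library of replicate 4 for PCDH8 (29.8 CPM, others 0.0652 to 3.73). The periphery library of replicate 2 held 13000 CPM of Schwann cell markers, beside 604 to 4460 CPM in the other 3, and its part in the values of PCDH9 and PCDH20 was not tested.

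The difference between fovea and periphery itself differed between the tissues by the interaction term for 23 of 44 genes, beside 43.5% of all genes. Those that the rules named for it were CDH22 (6.51), PCDH19 (3.46), CDH10 (3.07), CDH1 (-0.70), CDH2 (-0.92), CDH3 (-2.46), CDH11 (-3.08) and CDH23 (-3.45). That between fovea and nasal location differed for 9 of 44 genes, beside 23.5% of all genes. Of the 9, the rules named CDH10 (2.51), CDH18 (1.74), PCDH9 (1.21), CDH1 (-0.56), CDH3 (-1.17), PCDH12 (-1.54) and CDH11 (-1.71). CDH18, PCDH9 and PCDH12 were also called for the periphery, at 2.48, 2.17 and -1.92. Values are log2, retina minus RPE/choroid.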

How the results depend on the processing

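The precision is limited by 4 eyes of 2 monkeys and, in RPE/choroid, by larger spread and by libraries that differ in nerve and photoreceptor RNA. With the replicate block, the eye in place of the monkey, 22, 30 and 32 genes were called in retina against perimacula, nasal punch and periphery, and 0, 0 and 24 in RPE/choroid. Beside these counts, the block called 38.8, 50.9 and 68.7% of all genes in retina and 0, 0.19 and 46% in RPE/choroid. The block gave 32 calls between the tissues, beside 55.6% of all genes. It gave 23 and 9 interactions for the periphery and the nasal location, beside 42.4% and 22.6%. The calls it changed were those of CDH1 (adjusted p = 0.052) and CDH6, lost, and CDH8, gained, in retina against the perimacula, PCDHB1, lost, in retina against the nasal location, and CDH7, lost, and CDH9, gained, in RPE/choroid against the periphery. Calls left the range of 1.5 times the reported count with DESeq2 in RPE/choroid (4 against the perimacula and 1 against the nasal location), with the compared locations alone (2 and 1) and with at least 10 counts in every library for the tissues (21, where 31 genes were tested, beside 57.3% of all genes). Leaving out 1 eye gave 12 to 18 calls in retina against the perimacula and 5 to 7 for the nasal interaction. These smaller fits are given without their share of all genes.

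Of 1224 values of named genes under the alternatives, 1143 kept their direction and side of the threshold, 53 lost and 8 gained a call, and 20 changed sign, all of the last in results that were not called. In log2, PCDH15 in RPE/choroid against the nasal location was -0.22 with the replicate block, -0.14 with the compared locations alone, -0.25 without the libraries high in Schwann cell markers, -1.08 without those high in rod markers and -1.24 to 0.95 on leaving out 1 eye. PCDH15 was -0.51 against the perimacula and 0.34 against the periphery without those high in rod markers, and -0.60 to 1.90 and -2.89 to 0.37 on leaving out 1 eye. Its interaction for the periphery was 0.01 with DESeq2 and -1.28 to 1.77 on leaving out 1 eye. On leaving out 1 eye, CDH3 in retina against the perimacula was -0.12 to 0.03 (0.01 and 0.03 without replicates 3 and 4), CDH23 in RPE/choroid against the periphery -0.06 to 1.27 and CDH1 in RPE/choroid against the nasal location -0.11 to 0.08. Without the libraries high in rod markers CDH1 and CDH23 against the nasal location were 0.06 and 0.10, and without those high in Schwann cell markers CDH23 against the periphery was -0.68. That last fit kept RM04 alone at the periphery. In RM04, CDH23 was 5.35 and 15.3 CPM at the fovea and 16.2 and 18.7 CPM at the periphery. In RM03 it was 93.2 and 99.6 CPM at the fovea and 16.8 and 14.9 CPM at the periphery. The cause of these changes was not tested.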

Other observations

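Some genes differed between the monkeys in RPE/choroid at the fovea, the perimacula and the nasal location (6 libraries per monkey), and these were chosen after their values were seen. CDH23 was 65.1 to 149 CPM in RM03 and 5.35 to 17.5 CPM in RM04, while in retina it was 15.5 to 105 CPM in RM03 and 42.4 to 196 CPM in RM04. CDH11 was 566 to 691 CPM in RM03 and 268 to 416 CPM in RM04, and PCDH20 was 13.5 to 41 and 4.1 to 8.22 CPM, with no overlap for either gene. PCDH8 went the other way, at 0 to 2.21 CPM in RM03 and 1.26 to 29.8 CPM in RM04, and so did CDH17, at 2.68 to 3.86 and 3.56 to 16.1 CPM. At the periphery CDH17 was 2.53, 2.93, 22.1 and 30.4 CPM, with RM04 far above RM03, whereas CDH23 was 14.9 to 18.7 CPM in all 4 libraries. With 2 animals a difference between them has no replicate and was not tested.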
